A study of Mus musculus with 6 samples.

Results

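The 10 genes described here encode parts of the bone morphogenetic protein (BMP) and transforming growth factor beta (TGF-β) pathways: the ligands Bmp2, Bmp4, Bmp7, Tgfb1, Tgfb2 and Tgfb3, the BMP antagonist Nog, the receptors Bmpr1a and Tgfbr2, and the target gene Id1. They were read out by gene symbol from gene counts that held 23260 distinct lines. All 10 had a line, and 9 were among the 13610 genes with enough counts to test. The samples were embryonic submandibular glands (eSMGs), the rudiments of a major salivary gland, taken from ICR mouse embryos at embryonic day 14 (E14). The comparison was of untreated control eSMGs with eSMGs given 50 µM AMD3100, a small-molecule antagonist of the chemokine receptor CXCR4. By the study's description eSMGs of both groups were kept in culture medium and taken at 6 h. Each condition had 3 libraries (replicates 1 to 3), and a tube of RNA held up to 10 pooled glands, so values are averages over whole glands and all their cell types. The labels do not say whether replicates came from separate litters or cultures. The study's methods speak of independent experiments in general without naming these libraries, so p-values measure the spread between these libraries, which may be partly technical. The question addressed was whether blocking CXCR4 signalling altered the transcripts of these pathways.

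BMP and TGF-β ligands are secreted dimers that bring together type I and type II serine/threonine kinase receptors. The activated receptors phosphorylate SMAD proteins, which enter the nucleus with Smad4 and control target genes. BMP ligands act mainly through Smad1, Smad5 and Smad9 and induce the Id genes, which encode inhibitors of basic helix-loop-helix transcription factors, whereas TGF-β ligands act mainly through Smad2 and Smad3. Secreted antagonists such as noggin bind BMPs and keep them from their receptors. In branching organs such as the salivary gland these ligands pass between epithelium and mesenchyme and act on growth, branching and matrix.

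The libraries held 11532946, 13127539 and 10869528 counts in control replicates 1 to 3 and 14393031, 11358828 and 9051595 counts in AMD3100 replicates 1 to 3. Levels are given as CPM, counts divided by a library size that was scaled by the trimmed mean of M-values (TMM). They are counts of 3′ ends and carry no correction for transcript length, so they are compared between libraries and not between genes. At this depth 3 counts, taken as the floor of detection, corresponded to 0.173 to 0.368 CPM. Counting error is only a part of the error here, since the biological coefficient of variation fitted over all genes tested was 0.579.

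Markers of the cell types of the gland were present in all libraries, and no marker list held a gene at 0 in every library. All 9 epithelial and all 8 mesenchymal markers passed the filter on low counts. Both replicate 3 libraries stood apart from the others. The summed level of 6 skeletal muscle markers, of which Myog had the highest mean CPM, was 232, 230 and 1023 CPM in the control libraries and 152, 110 and 1276 CPM in the AMD3100 libraries. Replicate 3 was 4.43 times the mean of replicates 1 and 2 in control and 9.75 times in AMD3100, and all 6 markers were above that mean in both conditions. The 8 mesenchymal markers, of which Col3a1 had the highest mean CPM, had sums of 2857, 2852 and 1365 CPM in control and 2765, 2839 and 1250 CPM in AMD3100. Replicate 3 was below the mean of replicates 1 and 2 in both conditions for 5 of the 8, and not for Osr1, Twist2 and Pdgfrb, so the sum mainly gave the values of Col3a1 and Col1a1. The 5 macrophage markers summed to 98.9, 82.5 and 212 CPM in control and 92.9, 101 and 196 CPM in AMD3100, but without C1qa to 83.2, 68.5 and 89.8 CPM and 69.9, 82.1 and 101 CPM. The 9 epithelial markers, of which Krt15 had the highest mean CPM, summed to 2172, 2166 and 1475 CPM in control and 2612, 2282 and 3456 CPM in AMD3100. These sums did not overlap, but without Krt15 they were 1130, 1154 and 587 CPM against 1246, 1266 and 984 CPM and overlapped. Replicate 3 was below replicates 1 and 2 in both conditions for 5 of the 9, among them Krt5 (ratios 0.187 and 0.290) and Sox10 (0.218 and 0.162). Endothelial, ganglionic and erythroid sums overlapped between the conditions. In pooled whole glands, fewer cells of a type and less RNA per cell cannot be told apart, and the part of cell composition in the values that follow was not tested. Where leaving out a replicate 3 library, or both, changed the call of a gene named below, the value without it is given.

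**Figure D1:**
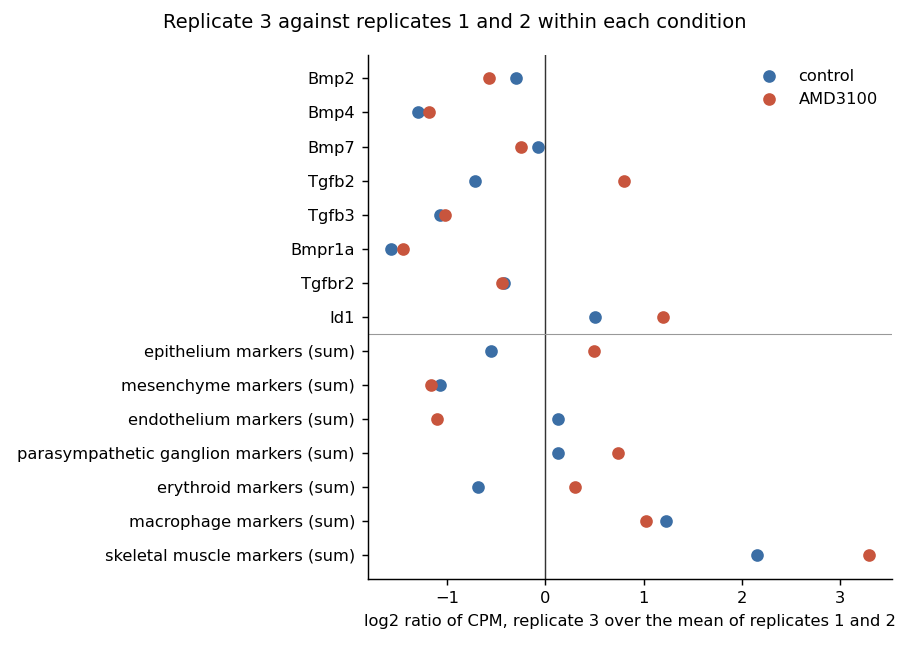
Log2 ratio of the TMM-normalized CPM in replicate 3 to the mean of replicates 1 and 2 (x axis) for 8 members and for the summed CPM of 7 marker lists (y axis), in control (blue) and AMD3100 (orange). Bmpr1a, Bmp4, Tgfb3 and the mesenchymal sum lie left of 0 by similar distances in both conditions, the skeletal muscle sum lies farthest to the right, and Tgfb2 lies on opposite sides of 0 in control and AMD3100.

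None of the 9 members tested changed by the thresholds used in the study, a fold change over 1.5 with an unadjusted p under 0.05. By edgeR's quasi-likelihood test, 228 of all 13610 genes passed these thresholds (1.68%), of which 174 were lower in AMD3100 (1.28% of genes tested). Of the members, 2 had a higher and 7 a lower fitted level in AMD3100, and their median log2 fold change was -0.19, beside 0.02 for all genes tested. After Benjamini-Hochberg adjustment over all genes, 0 genes passed 0.05 by edgeR (0%), where 228 had an unadjusted p under 0.05. By DESeq2, 5 of 13588 genes with an adjusted p passed (0.0368%), and 0 of them were members. With the replicate number as a block, 598 genes (4.39%) passed the fold and unadjusted p thresholds and 3 (0.022%) the adjusted p, again with 0 members among them. The smallest adjusted p of any member was 1.0 without the block and 0.722 with it. In 2 members, Bmp2 and Bmp7, all libraries of one condition lay above all libraries of the other, which was the case for 1013 of all genes tested (7.44%). An exact two-sided permutation test of 3 libraries against 3 cannot give a p below 0.1. Unless called adjusted, the p-values that follow are unadjusted and come from the edgeR fit across all genes, and without the block the adjusted p was 1.0 for every gene named.

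**Figure D2:**
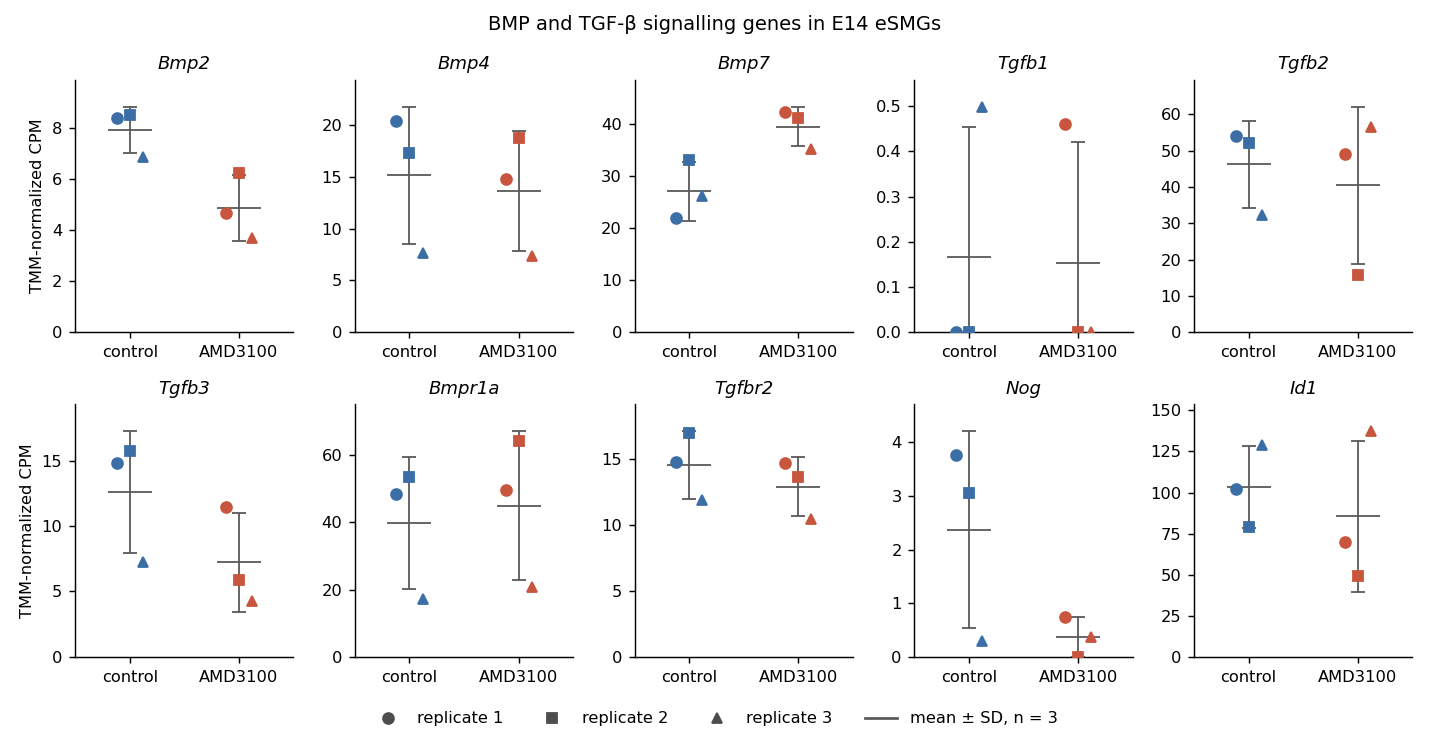
TMM-normalized CPM (y axis, from 0, with its own scale in each panel) of the 10 genes in control (blue) and AMD3100 (orange) libraries, with marker shapes for replicates and lines for the mean ± SD of 3 libraries. Bmp2 and Bmp7 separate the conditions without overlap, while Bmp4, Bmpr1a and Tgfb3 have their lowest value in replicate 3 of both conditions.

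Among the BMP ligands, Bmp7 had the higher level in AMD3100 and Bmp2 the lower one, and Bmp4 differed little against its spread. Bmp7, a ligand expressed in the epithelium of many branching organs, lies on chromosome 2 from 172868012 to 172940321 (GRCm38.p6 assembly, the mm10 build, for this and all positions). It measured 22.0, 33.2 and 26.2 CPM in control and 42.3, 41.2 and 35.2 CPM in AMD3100. The lowest AMD3100 library was above the highest control library. The means were 27.1 ± 5.67 and 39.6 ± 3.81 CPM (SD, n = 3), a log2 fold change of 0.54 ± 0.30 (SE, edgeR p of 0.102) or 1.46-fold. With the replicate block the log2 fold change was 0.56 with an edgeR p of 0.0371 (adjusted p 0.722), still under the fold threshold. Leaving out each library in turn kept it between 0.41 and 0.72. The study singled out Bmp7 on these same libraries, so its direction here is not independent evidence. Of the 9 epithelial markers, 7 also had a higher and 2 a lower fitted level in AMD3100, beside 7100 higher and 6510 lower of all genes tested. The conditions did not overlap for Cdh1 (E-cadherin), at 337, 302 and 211 CPM in control and 344, 394 and 507 CPM in AMD3100, a log2 fold change of 0.55 ± 0.31 (SE, edgeR p of 0.108, and 0.0253 with the block). Krt15 had a log2 fold change of 0.72 (edgeR p of 0.0798) and passed both thresholds with the block (0.62, edgeR p of 0.0240, adjusted p 0.703). The log2 fold changes of the other epithelial markers ran from -0.05 (Epcam and Sox10) to 0.46 (Krt19), with none past both thresholds in either fit. The part of the epithelial markers in the Bmp7 values was not tested.

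Bmp2 (chromosome 2, 133552159 to 133562896), a ligand closely related to Bmp4, was counted 96, 117 and 69 times in the control libraries and 81, 68 and 30 times under AMD3100. Its levels were 8.41, 8.52 and 6.88 CPM against 4.67, 6.27 and 3.68 CPM, with every AMD3100 library below every control library. The means were 7.94 ± 0.916 and 4.87 ± 1.30 CPM (SD, n = 3). The log2 fold change was -0.70 ± 0.51 (SE), which did not pass by edgeR (p of 0.204, and 0.197 with the block). It stayed negative under every alternative run, from -0.92 to -0.55.

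Bmp4 (chromosome 14, 46383525 to 46390669), a ligand of both epithelial and mesenchymal tissues, measured 20.4, 17.3 and 7.68 CPM in control and 14.8, 18.7 and 7.37 CPM in AMD3100. The conditions overlapped throughout, and replicate 3 was the lowest in each, at 0.408 and 0.440 of the mean of replicates 1 and 2. The log2 fold change was -0.15 ± 0.50 (SE, edgeR p of 0.776), and its sign turned when control replicate 1 (0.12) or AMD3100 replicate 3 (0.14) was left out. In the mouse annotation a predicted gene, Gm15217, lies on the opposite strand at the 3′ end of Bmp4. Whether the counting used strand is not given in the sources used here, so reads of the pair may not be separable.

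The TGF-β ligands differed in how much was measured. Tgfb1 (chromosome 7, 25687002 to 25705077), the ligand best known from immune cells and platelets, was counted 0, 0 and 5 times in the control libraries and 8, 0 and 0 times under AMD3100. With 4 of 6 libraries at 0 it did not pass the filter on low counts and was not tested. It was at or near the floor of detection, so a difference could not be seen at this depth.

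Tgfb2 (chromosome 1, 186622787 to 186709697) was counted 618, 717 and 325 times in the control libraries and 852, 172 and 460 times under AMD3100. Its levels of 54.1, 52.2 and 32.4 CPM in control and 49.1, 15.9 and 56.5 CPM in AMD3100 overlapped, with AMD3100 replicate 2 far below the rest. The log2 fold change of -0.19 ± 0.47 (SE, edgeR p of 0.690) became 0.20 without that library. Among the members tested, Tgfb2 was the 1 for which replicate 3 stood on opposite sides of replicates 1 and 2, at a ratio of 0.610 in control and 1.74 in AMD3100.

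Tgfb3 (chromosome 12, 86056743 to 86079041), the third TGF-β isoform, measured 14.8, 15.7 and 7.28 CPM in control and 11.5, 5.90 and 4.30 CPM in AMD3100. Each AMD3100 library was below the control library of the same number, but the groups overlapped because control replicate 3 was low. The means were 12.6 ± 4.63 and 7.22 ± 3.76 CPM (SD, n = 3), with a log2 fold change of -0.80 ± 0.53 (SE). It did not pass by edgeR (p of 0.169, and 0.0747 with the replicate block), while every alternative lay within -1.30 to -0.54.

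Nog (chromosome 11, 89300638 to 89302559) encodes noggin, the secreted antagonist of BMP2, BMP4 and related ligands. It was counted 43, 42 and 3 times in the control libraries and 13, 0 and 3 times under AMD3100. Control replicates 1 and 2, at 3.76 and 3.06 CPM, stood above all others, and both replicate 3 libraries were at the floor of 3 counts. Its log2 fold change was the lowest of the members at -2.61, with an SE of 1.61, and did not pass (edgeR p of 0.140, DESeq2 p of 0.0797). Leaving out each library in turn gave -3.65 to -2.04.

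The receptors overlapped between the conditions. Bmpr1a (chromosome 14, 34411061 to 34503336), a type I receptor for BMP2 and BMP4, measured 48.4, 53.5 and 17.3 CPM in control and 49.6, 64.2 and 20.9 CPM in AMD3100. Each AMD3100 library was above its control of the same number, by log2 ratios of 0.03 to 0.28, while replicate 3 lay at 0.338 and 0.367 of the other replicates. Its fitted log2 fold change was 0.18 ± 0.52 (SE, edgeR p of 0.741) and turned negative without control replicate 3 (-0.18) or AMD3100 replicate 2 (-0.17). With the replicate block, the SE fell to 0.20 around a log2 fold change of 0.19 (edgeR p of 0.360). Tgfbr2 (chromosome 9, 116087695 to 116175363), the type II receptor that binds TGF-β, measured 14.8, 17.0 and 11.9 CPM in control and 14.7, 13.6 and 10.4 CPM in AMD3100. Its log2 fold change of -0.17 ± 0.37 (SE, edgeR p of 0.656) was small against the error.

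Id1 (chromosome 2, 152736251 to 152737410), a direct target of BMP-activated SMADs and a common readout of BMP signalling, measured 102, 79.0 and 129 CPM in control and 70.0, 49.4 and 137 CPM in AMD3100. AMD3100 replicates 1 and 2 were below every control library, and AMD3100 replicate 3 was above them all. The means were 104 ± 25.1 and 85.5 ± 45.9 CPM (SD, n = 3), a log2 fold change of -0.28 ± 0.41 (SE, edgeR p of 0.519). With replicates 1 and 2 of each condition alone it was -0.60 (edgeR p of 0.0264), past both thresholds. Without AMD3100 replicate 2 it was 0.0090. The Id1 call depended on which libraries entered, and Id1 was the 1 member whose highest value in both conditions was replicate 3.

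**Figure D3:**
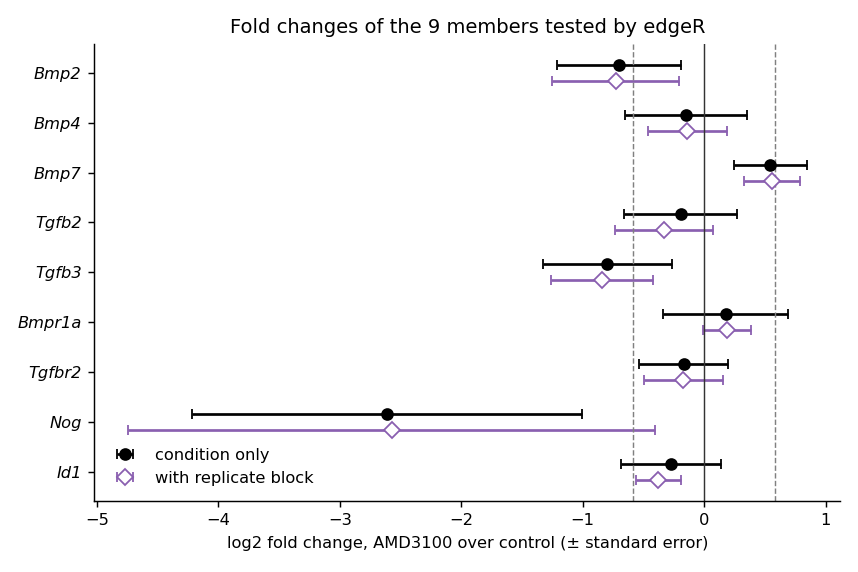
Log2 fold change of AMD3100 over control (x axis) for the 9 members tested (y axis), with bars of ± 1 standard error, from the edgeR fit on condition (filled circles) and with the replicate number as a block (open diamonds); dashed lines mark a fold change of 1.5. Bmp7 is the member whose bars stay right of 0 in both fits, those of Bmp2, Tgfb3 and Nog stay left of 0, and the block narrows the bars of Bmpr1a and Id1.

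Replicate 3 had the lowest level in both conditions for 5 of the 9 members (Bmp2, Bmp4, Bmpr1a, Tgfb3 and Tgfbr2), which is 55.6% beside 25.5% of all genes tested. It had the highest in both for 1 of 9, or 11.1% beside 27.9%. By the same rule, replicate 3 had the lowest level in both conditions for 4 of 8 mesenchymal and 5 of 9 epithelial markers. Between the conditions, 2 of the 8 mesenchymal markers had a higher and 6 a lower fitted level in AMD3100. Osr1 did not overlap (log2 fold change -0.23, edgeR p of 0.397). Twist1 had a log2 fold change of -0.87 (edgeR p of 0.0970) and passed both thresholds with the block (-0.97, edgeR p of 0.0193, adjusted p 0.703). The log2 fold changes of the other mesenchymal markers ran from -0.50 (Twist2) to 0.11 (Pdgfrb), with none past both thresholds in either fit. The part of either cell type in the members' values was not tested.

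Across the rest of the pathway, 102 further genes were listed by role, of which 73 passed the filter on low counts. In AMD3100, 37 had a higher and 36 a lower fitted level, with a median log2 fold change of 0.04. Of these, 2 changed by the thresholds of the study, Rgmb and Ctgf, both lower (2.74% beside the 1.68% of all genes), and 0 had an adjusted p under 0.05. With the replicate block 7 passed, beside 4.39% of all genes. These were Rgmb, Ctgf, Gdf10, Tgif1 and Id3 on the lower side and Itgav and Ltbp4 on the higher side. In 6 of the 73 the groups did not overlap, which is 8.22% beside 7.44% of all genes tested.

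**Figure D4:**
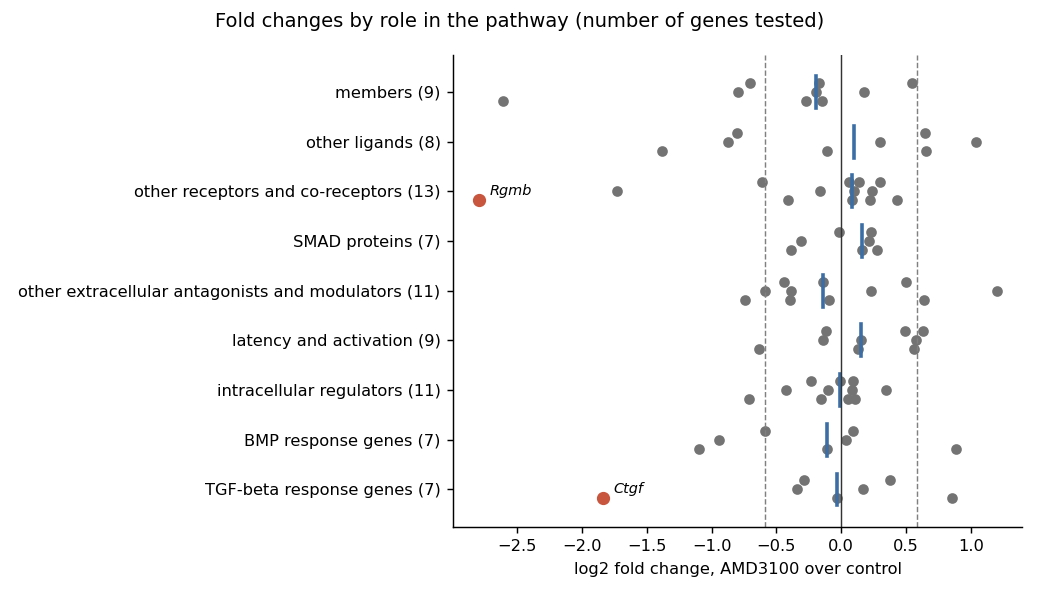
Log2 fold change of AMD3100 over control (x axis) for each tested gene of the pathway, arranged by role (y axis, number tested in brackets); blue bars are list medians, dashed lines a fold change of 1.5, and orange points the genes past both thresholds. All list medians lie between -0.19 and 0.16, and Rgmb and Ctgf are the 2 orange points.

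Rgmb had the lowest log2 fold change of the pathway genes tested. It encodes a membrane-anchored co-receptor that binds BMP ligands and increases BMP signalling, and lies on chromosome 17 from 15804661 to 15831246. It was counted 110, 115 and 49 times in the control libraries and 14, 6 and 16 times under AMD3100, or 9.63, 8.38 and 4.89 CPM against 0.806, 0.553 and 1.96 CPM. The highest AMD3100 library lay below the lowest control library. Its log2 fold change was -2.79 ± 0.78 (SE), with an unadjusted edgeR p of 0.00627. Its unadjusted p was under 0.05 in all 14 alternative settings in which it could be tested, with log2 fold changes from -3.70 to -2.47. These settings reuse the same libraries and are not independent evidence. With at least 10 counts asked of every library Rgmb could not be tested, since AMD3100 replicate 2 had 6. As the pathway gene with the lowest fold change, it is shown with the 250 bases upstream of its RefSeq start (chr17:15831247-15831496, minus strand, 5′ to 3′), with the SMAD-binding tetramer GTCT or its reverse complement AGAC in capitals.
Rgmb: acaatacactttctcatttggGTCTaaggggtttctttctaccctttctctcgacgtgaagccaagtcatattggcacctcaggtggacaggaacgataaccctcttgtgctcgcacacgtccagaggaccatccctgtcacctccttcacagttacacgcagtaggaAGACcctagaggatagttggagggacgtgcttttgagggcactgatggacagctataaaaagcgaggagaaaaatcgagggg
The matches began 229 and 82 bases before the start. A GTCT on either strand occurred in 83.0% of the 27025 upstream windows of the same length, so its presence in this window is common. The window held no GGCGCC, the palindrome reported for BMP-activated SMADs, which occurred in 9.6% of the windows.

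Of the other 12 receptors and co-receptors tested, 8 had a higher and 4 a lower level, and 0 passed. Bambi, a pseudoreceptor that dampens BMP and TGF-β signalling and is itself induced by them, was counted 44, 24 and 39 times in the control libraries and 5, 12 and 12 times under AMD3100. Its groups did not overlap, with 3.85, 1.75 and 3.89 CPM above 0.288, 1.11 and 1.47 CPM. At these low counts the log2 fold change was -1.73 with an SE of 1.10 and did not pass (edgeR p of 0.151). Bmpr2, the type II receptor for BMPs, measured 45.7 ± 9.75 CPM in control and 56.3 ± 8.84 CPM in AMD3100 (SD, n = 3), at a log2 fold change of 0.30 (edgeR p of 0.338).

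Of 24 further ligands, 8 passed the filter, 4 on each side, and 0 changed. Gdf15, a stress-responsive member of the family, measured 3.94, 1.09 and 3.89 CPM in control and 4.15, 9.13 and 5.03 CPM in AMD3100, without overlap but by a narrow gap (log2 fold change 1.04 ± 0.75 SE, edgeR p of 0.199). Gdf10, also known as BMP3b, measured 43.6, 48.2 and 197 CPM in control and 30.2, 25.7 and 110 CPM in AMD3100. It was lower in AMD3100 within each replicate number and far higher in replicate 3 of both conditions. Its log2 fold change was -0.80 ± 0.72 (SE, edgeR p of 0.296) without the block and -0.76 (edgeR p of 0.00129, adjusted p 0.274) with it, but 0.28 when control replicate 3 was left out. Without AMD3100 replicate 3 it was -1.80 (edgeR p of 0.0206), and with replicates 1 and 2 alone -0.72 (edgeR p of 0.0274).

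The SMAD proteins varied little. All 7 that were tested had log2 fold changes between -0.39 and 0.28, with a median of 0.16, and 0 passed. Smad5, a BMP-regulated SMAD, measured 101 ± 5.12 CPM in control and 122 ± 18.9 CPM in AMD3100 (SD, n = 3, log2 fold change 0.28, edgeR p of 0.331). Smad6, an inhibitory SMAD that BMP signalling induces, measured 6.10 ± 1.94 and 4.64 ± 1.43 CPM (SD, n = 3, log2 fold change -0.39, edgeR p of 0.531).

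Of 15 further extracellular antagonists and modulators, 11 were tested, with 4 higher, 7 lower and 0 past the thresholds. Crim1, a transmembrane protein that binds BMPs and holds them at the cell, measured 15.0, 24.6 and 21.5 CPM in control and 13.9, 9.86 and 12.8 CPM in AMD3100. The groups did not overlap, at a log2 fold change of -0.74 ± 0.37 (SE, edgeR p of 0.0741), which passed only without control replicate 1 (-0.92, edgeR p of 0.0473). The neighbouring gene Fez2 lies on the opposite strand at its 3′ end, so its counts may include reads of that gene. Twsg1, which binds BMPs together with chordin, had a log2 fold change of -0.59 (edgeR p of 0.147), and Fstl1, a secreted follistatin-like protein, of -0.10 (edgeR p of 0.781).

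Genes of ligand release and activation had 6 higher and 3 lower of 9 tested, with 0 past the thresholds and 2, Itgav and Ltbp4, with the replicate block. Bmp1, which is a metalloproteinase and not a BMP ligand, and which cleaves chordin and procollagens, measured 38.9, 35.8 and 43.7 CPM in control and 64.7, 52.7 and 57.2 CPM in AMD3100. The conditions did not overlap, with a log2 fold change of 0.56 ± 0.27 (SE, edgeR p of 0.0660, and 0.0143 with the block), under the fold threshold. With replicates 1 and 2 alone it passed both thresholds, at 0.65 (edgeR p of 0.0253). Itgav, the integrin alpha-V chain that takes part in the release of latent TGF-β, measured 22.7 ± 7.12 CPM in control and 35.1 ± 10.4 CPM in AMD3100 (SD, n = 3). Its log2 fold change was 0.63 by both fits, with an edgeR p of 0.124 without the block and 0.0333 with it. Ltbp3, a latent TGF-β binding protein, had a log2 fold change of 0.13 (edgeR p of 0.735).

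The intracellular regulators had 5 higher and 6 lower of 11 tested and 0 past the thresholds. Tgif1, a homeodomain corepressor of SMAD targets, measured 29.2, 31.0 and 18.8 CPM in control and 25.2, 12.3 and 10.6 CPM in AMD3100, lower within each replicate number. Its log2 fold change was -0.72 ± 0.43 (SE, edgeR p of 0.130), and -0.79 with the block (edgeR p of 0.0285, adjusted p 0.706). Without AMD3100 replicate 1 it was -1.21 (edgeR p of 0.0260). Zfyve16, an endosomal protein that binds SMADs, had a log2 fold change of -0.42 (edgeR p of 0.361). Fkbp1a, which binds type I receptors, had one of -0.10 (edgeR p of 0.776), and 36.4% of the 50-base stretches at its 3′ end also matched elsewhere in the genome, so its counts are uncertain.

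Of the BMP response genes besides Id1, 3 were higher and 4 lower of 7 tested, and 0 passed. Id3, a relative of Id1, measured 108, 141 and 405 CPM in control and 75.0, 73.9 and 157 CPM in AMD3100. Each AMD3100 library was below the control of the same number, but AMD3100 replicate 3 was above control replicates 1 and 2. On the log2 scale the fold change was -1.10 ± 0.54 (SE, edgeR p of 0.0746). With the replicate block it was -0.94 (edgeR p of 0.000413, adjusted p 0.214), past the thresholds, and without control replicate 3 it was -0.28 (edgeR p of 0.507). With replicates 1 and 2 alone it was -0.75 (edgeR p of 0.00270). It also passed without control replicate 1 (-1.43, edgeR p of 0.0362) or AMD3100 replicate 3 (-1.57, edgeR p of 0.0185) and by DESeq2 (-1.10, p of 0.0456). Quantile normalization with limma-voom (-0.98, limma p of 0.0426) and no filter on low counts (-1.10, edgeR p of 0.0410) gave the call as well. Id4 measured 17.9, 13.0 and 23.9 CPM in control and 7.37, 16.3 and 4.79 CPM in AMD3100 (log2 fold change -0.94 ± 0.52 SE, edgeR p of 0.104). Without AMD3100 replicate 2, its highest AMD3100 library, it passed at -1.57 (edgeR p of 0.0130), while replicates 1 and 2 alone gave -0.39 (edgeR p of 0.472). Id2 measured 459, 425 and 267 CPM in control and 437, 382 and 247 CPM in AMD3100, with a log2 fold change of -0.11 ± 0.34 (SE, edgeR p of 0.750). Id1 and Id3 had their highest value in replicate 3 of each condition and Id2 its lowest. Of the rest of the list, Hey1 had a log2 fold change of -0.59, Dlx5 of 0.89, Msx1 of 0.09 and Atoh8 of 0.0394, none past the thresholds.

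The set of RefSeq upstream windows used here held 5 of the 10 members and lacked Id1, Bmp2, Bmp7, Nog and Tgfb3. Of these 5, 1 (Bmpr1a) had a GGCGCC within 250 bases upstream of its start, while 4 had a GTCT or AGAC. Among the Id genes, Id2 is shown as a case with both motifs (chr12:25096093-25096342, minus strand, 5′ to 3′, with GGCGCC and AGAC in capitals), as a BMP target gene whose level differed little between the conditions.
Id2: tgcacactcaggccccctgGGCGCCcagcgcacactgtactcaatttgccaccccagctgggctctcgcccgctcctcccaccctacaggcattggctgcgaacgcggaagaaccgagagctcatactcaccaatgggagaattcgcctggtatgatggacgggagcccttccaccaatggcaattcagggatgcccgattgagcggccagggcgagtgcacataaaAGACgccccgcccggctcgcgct
The GGCGCC began 231 and the AGAC 23 bases before the start. These matches are letters in a window and describe no binding.

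The TGF-β response genes had 3 higher and 4 lower of 7 tested. Ctgf (now Ccn2, chromosome 10, 24595442 to 24598683), a matricellular protein induced by TGF-β and by other signals such as YAP, was the 1 that changed. It was counted 167, 78 and 82 times in the control libraries and 23, 35 and 28 times under AMD3100, or 14.6, 5.68 and 8.18 CPM against 1.32, 3.23 and 3.44 CPM. The conditions did not overlap. On the log2 scale the fold change was -1.84 ± 0.65 (SE), with an unadjusted edgeR p of 0.0207, and of 0.0317 with the block. The call was lost without control replicate 1 (-1.39, edgeR p of 0.105) and without AMD3100 replicate 1 (-1.51, edgeR p of 0.0649). Tgfbi, an extracellular matrix protein named for its induction by TGF-β, measured 5.32 ± 2.65 CPM in control and 9.64 ± 3.87 CPM in AMD3100 (SD, n = 3), the opposite direction, and did not pass (log2 fold change 0.86, edgeR p of 0.181). Acta2, smooth muscle actin, measured 45.4, 67.5 and 187 CPM in control and 55.5, 52.6 and 229 CPM in AMD3100, highest in replicate 3 of both conditions as the skeletal muscle markers were (log2 fold change 0.17, edgeR p of 0.812).

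**Figure D5:**
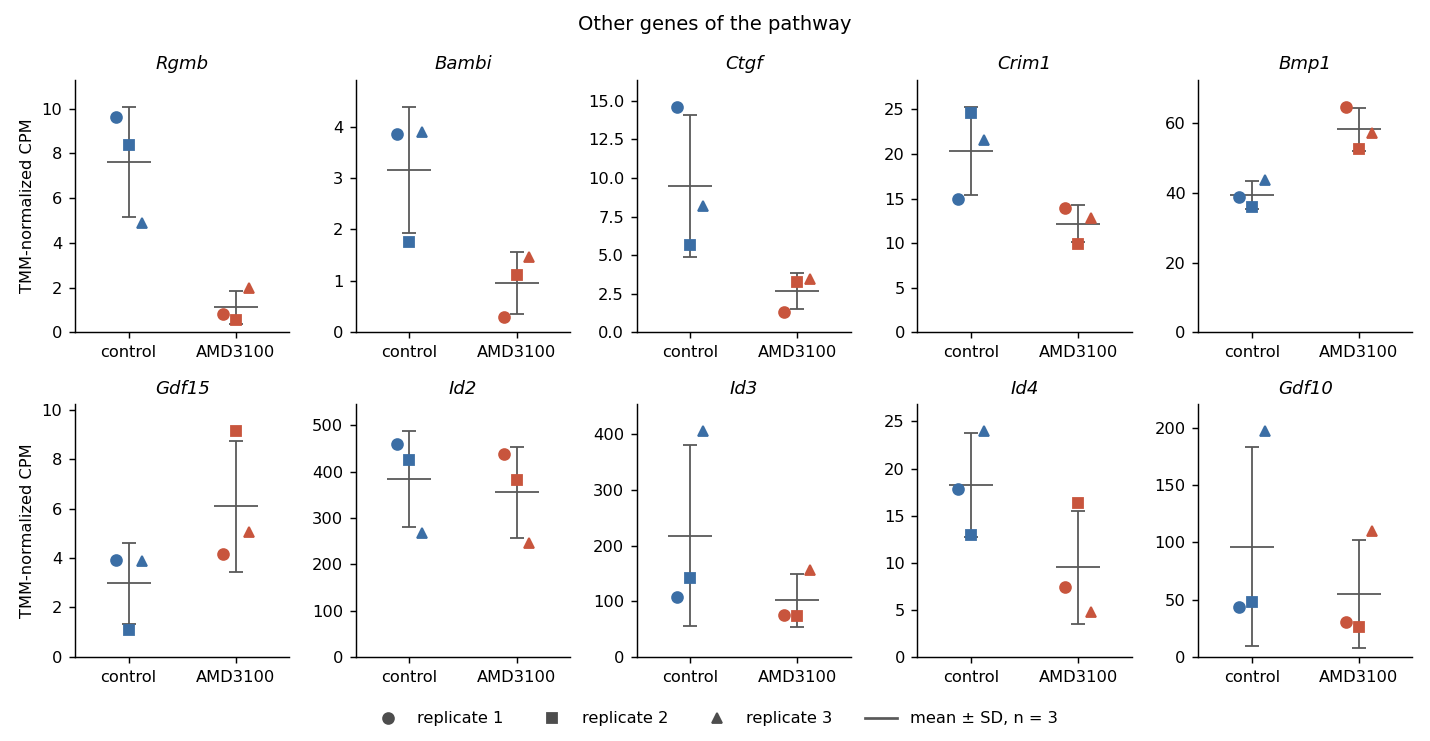
TMM-normalized CPM (y axis, from 0, own scale in each panel) of 10 further pathway genes in control (blue) and AMD3100 (orange) libraries, with marker shapes for replicates and lines for the mean ± SD of 3 libraries. Rgmb, Bambi, Ctgf and Crim1 lie lower and Bmp1 and Gdf15 higher in all AMD3100 libraries, while Id3 and Gdf10 have their highest value in replicate 3 of both conditions.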

How the data were processed

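RNA from pooled eSMGs was made into 50 bp single-read QuantSeq 3′ mRNA libraries. The authors deposited raw counts per gene symbol for each library. Their processing notes name Bowtie2, edgeR and the mm10 build; the versions, the gene annotation and the counting tool are not given in the sources used here. Of 23282 lines, 22 identical repeats were left out. Counts of 6 libraries (9051595 to 14393031 in total) were filtered by filterByExpr, normalized by TMM and tested with edgeR 4.0.16 (quasi-likelihood, R 4.3.3), with Benjamini-Hochberg adjustment over all genes. The ribosomal RNA precursor Rn45s took 16.2% to 32.5% of the counts. The script was tested on simulated data. Alternatives used DESeq2 1.42.0, limma 3.58.1, other filters and normalizations, the replicate block and fewer libraries.

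Replicate numbers come from the sample titles. Deviations of same-numbered libraries correlated at 0.241, 0.220 and 0.646, which met the criterion for pairs (each over 0.1). Control 2 with AMD3100 1 (0.259) and control 1 with AMD3100 2 (0.183) met it too. The criterion therefore cannot tell which libraries of replicates 1 and 2 belong together, and whether same-numbered libraries are true pairs is not known. The main fit had no block, as in the study, and the blocked fit was an alternative.

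The members and the pathway and marker lists were chosen with earlier results of these data known. Named were all members and, in each list, the genes past the thresholds, filled up to 2 by lowest p, and the gene with the highest mean CPM over all libraries. Ltbp4, called with the block, and Hey1, Dlx5, Msx1 and Atoh8 were added after their values were seen. So were the fold changes of the markers Cdh1, Krt15, Osr1 and Twist1. Stretches of 50 bases from the last 300 bases of each gene named by this rule were aligned with minimap2 2.31-r1302 to an older build, NCBIM37 (mm9), to look for shared sequence; members had none there. Upstream sequence and positions are RefSeq's for GRCm38.p6.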

Additional observations from a re-analysis of the deposited data

How the results depend on the processing

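Over 16 other settings, 0 members passed a fold change of 1.5 with p under 0.05 except 1 (Id1) with replicates 1 and 2 only, and edgeR's count of genes past these thresholds, 228, became 598 with the replicate block, 613 with replicates 1 and 2 only, and 163 to 547 leaving out 1 library (547 without control replicate 3, 451 without AMD3100 replicate 3). Genes with an adjusted p under 0.05 numbered 5 by DESeq2 and 3 with the block. The other pathway genes called were 4 with no filter, 1 with at least 10 counts in every library (where Rgmb could not be tested), 7 with the block, 6 with replicates 1 and 2 only, and 2 to 5 leaving out 1 library (5 without AMD3100 replicate 3). Members without overlap numbered 7 of 9 with replicates 1 and 2 only, beside 37.1% of all genes tested in that setting, and 2 to 5 leaving out 1 library (5 without control replicate 3, beside 23.2%); overlap is rarer with fewer libraries. The members' median log2 fold change was -0.60 with replicates 1 and 2 only and -0.52 to -0.0939 leaving out 1 library (-0.52 without AMD3100 replicate 3). Leaving out 1 library turned the sign of the log2 fold changes of Bmp4 (-0.46 to 0.14), Bmpr1a (-0.18 to 0.51), Tgfb2 (-0.52 to 0.20), Id1 (-0.81 to 0.0090), Fstl1 (-0.32 to 0.0709), Fkbp1a (-0.32 to 0.0762), Id2 (-0.31 to 0.0828), Ltbp3 (-0.23 to 0.47), Gdf10 (-1.80 to 0.28) and Acta2 (-0.91 to 1.01, and -0.0694 with replicates 1 and 2 only). The causes were not tested. The other members and the other genes named by the rule kept their direction in the settings run, all of which reuse the same libraries. The markers Cdh1, Krt15, Osr1 and Twist1 were not run in all settings. Nor were Ltbp4, Hey1, Dlx5, Msx1 and Atoh8, and Msx1 was -0.63 with the block. The block changed no call of a member by both thresholds. Low counts limit Nog, Tgfb1, Bambi and Rgmb.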

Other observations

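Among the genes of ligand release that did not pass the filter on low counts, Ltbp2, a latent TGF-β binding protein family member, was chosen after its values were seen. It had 0, 0 and 2 counts in control and 36, 45 and 7 counts in AMD3100, so the lowest AMD3100 library was above the highest control library. The filter left it out of the test reported above. With no filter the log2 fold change was 5.01 ± 2.09 (SE, unadjusted edgeR p of 0.0305, adjusted p 1.0), a fitted value that depends on how libraries at 0 are treated.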
